A study of Mus musculus with 8 samples.

Results

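The comparison concerned the cells that received only vehicle, the 2 samples labelled Control and the 2 samples labelled Esrrb, which are 4 of the 8 samples of the series. The line NIH3T3-pc3.1, with the empty pcDNA3.1 vector, served as Control, and the line NIH3T3-Esrrb had received this backbone with the Esrrb insert. NIH3T3 cells are fibroblasts established from mouse embryos, and Hedgehog ligand activates its pathway in them. Both lines had been selected with 150 µg/ml Zeocin for 3 weeks, were grown to confluence, and were then kept for 48 h in medium with 5 % serum. All 4 samples also received a 1:100 dilution of vehicle, which is medium from HEK293 cells (a human embryonic kidney line) without the Shh-N transgene. The Hh-CM and Esrrb+Hh-CM samples, 2 of each, were the same 2 lines treated with medium from HEK293 cells that carry this transgene. They are used below as a second comparison of the lines. It shares no sample with the first, but 1 fit over all 8 samples gave both their estimate of the spread.

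Each line was pooled from 2 transfections and used at passages 5 to 6, and the study calls the samples of a group biological replicates. Whether they come from separate transfections is not said, so the adjusted p-values measure only the spread between these samples. The effect of the inserted Esrrb and any other difference between the 2 established lines cannot be told apart here. A value in each of the 8 samples was at hand for 20197 annotated genes. Tested were the 10031 of them that reached an FPKM (the fragments counted on a transcript, divided by its length and by the size of the library) of 1 in 2 or more vehicle samples. Just inside this limit lay Hspa1l, whose second highest FPKM was 1.001, and just outside lay Nr4a2 with 0.999.

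Esrrb is an orphan nuclear receptor of the estrogen-related receptor family. These receptors have no known natural hormone ligand, bind DNA at an element built around one nuclear receptor half-site, and act together with coactivators such as PGC-1α, the product of Ppargc1a. Esrrb is best known for its part in the placenta and in pluripotent stem cells, whereas its relatives Esrra and Esrrg are known for control of mitochondrial and oxidative genes. Fibroblasts such as NIH3T3 make much of the extracellular matrix, and their lines are commonly described by collagens, small proteoglycans, contractile proteins and secreted growth regulators.

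The targeted gene was examined first. Esrrb, on chromosome 12 of mm9 from 87702067 to 87862578, was listed at an FPKM of 0 in both Control samples and in both samples labelled Esrrb. In the Hh-CM samples it was at 0.0281 and 0.0203 FPKM, and in both samples labelled Esrrb+Hh-CM it was listed at 0. The values thus do not show the transcript that the label names, and the 2 samples are called the samples labelled Esrrb throughout. The species and the transcribed parts of the inserted sequence are not given in the sources used here, so that a transcript from the vector may not map to the mouse gene. A value of 0 may also be a failed estimate, which was not tested. Esrra, on chromosome 19 from 6985467 to 6996303 and widely expressed, was listed at 0 in all 8 samples. Esrrg was at 0.0368 and 0.0209 FPKM in the Control samples and at 0 in both samples labelled Esrrb, far below the limit of the test.

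The 4 vehicle libraries were of similar depth. Relative to Control replicate 1, depth ranged from 0.852 to 1.17. The study gives only an approximate number of reads common to all samples, and no separate count for each. Replicates differed by at most 1 log2 unit for 98.1% of the genes tested, in Control cells as in cells labelled Esrrb. Esrrb replicate 1 had 480 loci with the status of low data against 62 to 78 in the other 7 samples, and 27992 loci in all, the most of any sample. All 9 epithelial, 6 endothelial, 7 neural and glial and 7 skeletal muscle markers that were matched lay below an FPKM of 1 in the 4 samples. Of 8 leukocyte markers, Cd14 (2.32 and 3.29 FPKM in Control, 6.06 and 4.57 in the samples labelled Esrrb) and Cd68 were tested and neither passed, with limma adjusted p = 0.0502 and 0.421. The summed FPKM of 11 fibroblast markers was between 8262 and 8342 in Control samples and between 10000 and 10030 in the samples labelled Esrrb. In bulk RNA, a different share of cells and a different level per cell cannot be told apart.

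Of the 10031 genes, 139 (1.39%) had an adjusted p below 0.05 in limma, a linear model fitted to log2(FPKM + 0.1), and a difference of at least 1 on the log2 scale. They comprised 77 genes that were higher (0.768%) and 62 that were lower (0.618%) in the samples labelled Esrrb. Fold changes on this scale understate the change of genes with low FPKM. The FPKM of the 2 Control samples did not overlap those of the 2 samples labelled Esrrb for any of the 139, whereas 40.0% of all genes tested were higher and 23.7% lower without overlap. In 55 of the 139 genes, both samples of one group lay below an FPKM of 1, so these genes could enter the test only through the group in which they were high (24 higher, 31 lower). With an FPKM of at least 1 required in all 4 samples, 76 genes passed, 47 higher and 29 lower. By the adjusted p alone, the rule used below for gene lists, 1053 genes rose (10.5%) and 633 fell (6.31%), 16.8% in all, and the median difference of all genes tested was 0.05 log2 units. After rescaling each sample by its median ratio, the split was 755 higher and 811 lower.

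**Figure D1:**
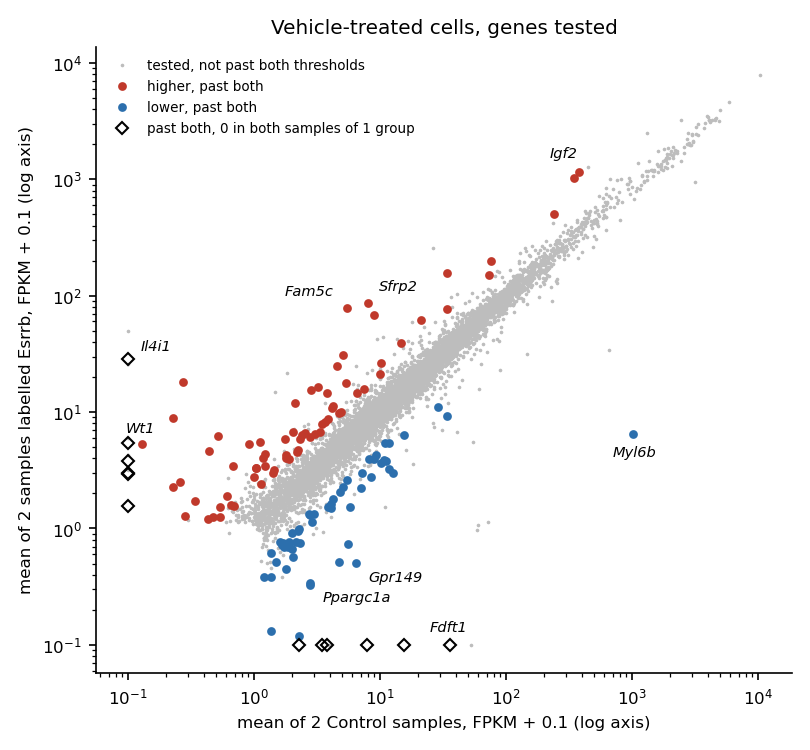
Mean FPKM + 0.1 of the 2 samples labelled Esrrb against that of the 2 Control samples for the 10031 genes tested, both on log axes; red and blue points passed both thresholds and open diamonds are genes listed at 0 in both samples of 1 group. Igf2 and Sfrp2 stand above the diagonal at high levels, Ppargc1a and Gpr149 below it at low levels, and the diamonds lie on the edges of the plot.

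Sfrp2 and Wt1 were the genes named to mark this comparison, so their values are given as a description. Sfrp2, a secreted Frizzled-related protein that binds Wnt ligands, spans bases 83570243 to 83578238 of chromosome 3 (mm9). Sfrp2 had an FPKM of 8.13 and 7.75 in the Control samples and 85.5 and 87.2 in the samples labelled Esrrb, with a ratio of means of 10.9. Wt1, a zinc finger transcription factor known from the developing kidney and gonad, lies on chromosome 2 from 104966686 to 105013773. It had 0.0216 and 0.0368 FPKM in Control and 3.22 and 7.31 in the samples labelled Esrrb. The 2 high Wt1 values differed from each other by more than those of Sfrp2 did, and the size of its log2 difference depended on the pseudocount, with 5.26 at 0.1 and 2.53 at 1. With a pseudocount of 0.001 its adjusted p in limma was 0.0537.

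The genes below were above 0 in all 4 samples. Fam5c (also called Brinp3), a gene known from the nervous system, stood at 5.28 and 5.43 FPKM in Control and at 77.4 and 78.7 in the samples labelled Esrrb. This was a log2 difference of 3.84 ± 0.05 (SE, limma adjusted p = 1.379e-06), larger than the spread between replicates. Adamts15, a protease that cleaves proteoglycans, rose from 0.327 and 0.344 to 4.72 and 4.37 FPKM. Podxl2, a sialomucin of the cell surface, rose from 0.104 and 0.148 to 2.41 and 1.97 FPKM. Gda, the enzyme that deaminates guanine, rose from 0.12 and 0.194 to 2.68 and 2.13 FPKM. Spats2l rose from 4.69 and 5.28 to 30.1 and 31.0 FPKM, and the start or end of its assembled locus differed between samples, as did those of Fam5c and Adamts15. C130026I21Rik (8.02 and 9.82 to 69.5 and 66.0 FPKM) and Slxl1 (0.901 and 0.728 to 5.45 and 5.00 FPKM) belong to groups of near-identical copies, so that the reads could be split between them. Adamts15, Podxl2, Gda and Slxl1 lay below an FPKM of 1 in both Control samples. They thus entered the test only through the samples labelled Esrrb. For 2 further increases the locus reached over a neighbour in some samples. They were 1700015F17Rik (log2 difference 6.08), whose locus also covered Cldn12, and Gm53 (3.54), whose locus also covered Hoxb9, so the level of the named gene alone is not known.

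Several of the decreases were larger than 3 log2 units. Gpr149, an orphan G protein-coupled receptor, had 5.59 and 6.99 FPKM in Control and 0.314 and 0.496 in the samples labelled Esrrb (log2 difference -3.68 ± 0.22 SE, limma adjusted p = 0.0005821). Mtap2, a microtubule-associated protein known from neuronal dendrites, stood at 1.42 and 1.09 FPKM in Control and at 0.0281 and 0.0369 in the samples labelled Esrrb. Sgcd, a sarcoglycan of the complex that links the muscle membrane to the matrix, stood at 2.81 and 2.53 against 0.235 and 0.215 FPKM. All 3 fell by more than 3 log2 units and lay below an FPKM of 1 in both samples labelled Esrrb. They thus entered the test only through Control, and the rule that named them allowed no overlap between the groups. Pkia, an inhibitor of cAMP-dependent protein kinase, fell from 5.80 and 5.23 to 0.605 and 0.665 FPKM. Fibin, a secreted protein, fell from 4.55 and 4.62 to 0.393 and 0.448 FPKM, and Sema3c, a secreted semaphorin that guides axons, from 12.3 and 12.7 to 2.79 and 3.03 FPKM. Negr1, a neuronal adhesion molecule, fell from 1.78 and 1.62 to 0.413 and 0.281 FPKM. Pkia, Fibin and Negr1 likewise entered the test only through Control. Slc40a1, which encodes the iron exporter ferroportin, fell from 6.21 and 5.19 to 1.34 and 1.5 FPKM. Serpinb1a, an elastase inhibitor, and Rbp2, a retinol-binding protein, fell by 1.94 and 1.90 log2 units (limma adjusted p = 0.01816 and 0.04373). The call of Serpinb1a was lost without either Control sample and that of Rbp2 without any one of the 4 vehicle samples, with adjusted p up to 0.0803 and 0.166. The largest decrease in size, that of Myl6b (999 and 1050 to 6.1 and 6.55 FPKM, a log2 difference of -7.32), was measured on a locus that in some samples also covered Myl6, its abundant neighbour, so that it is no measure of Myl6b.

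**Figure D2:**
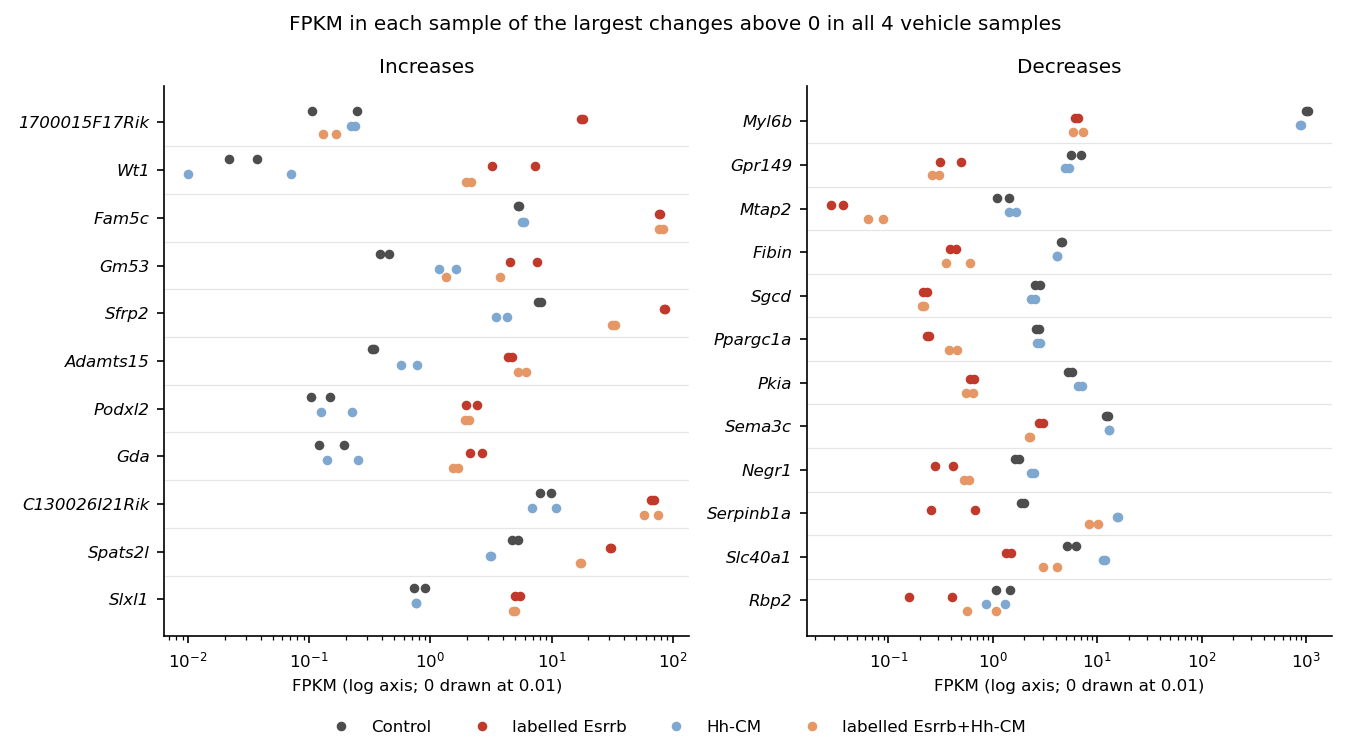
FPKM of 11 of the 12 largest increases and of the 12 largest decreases above 0 in the 4 vehicle samples, on log axes, with 1 point for each of the 2 samples of the 4 groups. For Fam5c, Sfrp2, Gpr149 and Sgcd the points of the 2 lines stand apart with vehicle and with Hh-CM alike, whereas 1700015F17Rik was high only in the vehicle samples labelled Esrrb.

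Some further genes past both thresholds were chosen after their values were seen and stand for no tested group. Ntn1, the secreted guidance cue netrin-1, rose from 3.80 and 3.55 to 14.7 and 14.2 FPKM (log2 difference 1.95, limma adjusted p = 0.001074). Unc5a, a netrin receptor, rose from 0.166 and 0.198 to 1.13 and 1.24 FPKM (2.19, limma adjusted p = 0.003396). Sema3a, a secreted semaphorin like Sema3c, fell from 8.03 and 8.70 to 2.62 and 2.75 FPKM (-1.61, limma adjusted p = 0.0003501). Dio2, the deiodinase that activates thyroid hormone, rose from 0.423 and 0.446 to 1.40 and 1.44 FPKM (1.51, limma adjusted p = 0.002129). Stc1, a secreted glycoprotein hormone, rose from 0.582 and 0.571 to 3.34 and 3.36 FPKM, and Dapk1, a kinase that promotes cell death, from 4.19 and 4.67 to 24.6 and 24.9 FPKM. Unc5a, Dio2 and Stc1 lay below an FPKM of 1 in both Control samples. They thus entered the test only through the samples labelled Esrrb.

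Of the estrogen-related receptors and their coregulators, 9 of 18 were tested, none rose and 2 fell (median difference 0.137, against 0.05 for all genes tested). Among all genes tested, 10.5% rose and 6.31% fell by the same rule. Ppargc1a, the coactivator of estrogen-related receptors and of mitochondrial biogenesis, spans bases 51845488 to 51958964 of chromosome 5 (mm9). Ppargc1a had an FPKM of 2.57 and 2.75 in Control and 0.234 and 0.246 in the samples labelled Esrrb, 11.1 times lower (log2 difference -3.02 ± 0.17 SE, limma adjusted p = 0.0004502). The corepressor gene Ncor1 fell slightly, from 27.6 and 26.2 to 21.9 and 22.1 FPKM (-0.29, limma adjusted p = 0.03178), a call that was lost without any one of the 4 samples (adjusted p up to 0.139) and at a locus that overlaps annotated neighbours. Ppargc1b was below the FPKM limit.

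The promoters of the genes past both thresholds were searched for the response element of estrogen-related receptors, TCAAGGTCA, and for its core, AAGGTCA, on both strands of the 250 bases before the RefSeq transcription start (build GRCm38.p6). Every match to the element is also a match to the core. A promoter was available for 8110 of the 10031 genes tested. The element was found in 0 of 58 higher and 0 of 43 lower genes, against 0.23% of the tested genes and 0.39% of all promoter windows. The core was found in 0 of 58 higher and 2 of 43 lower genes, against 3.02% of the tested genes and 4.08% of all windows. These stretches are shown because they are the only matches among the genes past both thresholds that have a promoter window, with the core in capitals as it reads on the opposite strand. They lie at chr3:114030444-114030500 for Col11a1 and chr9:98490454-98490510 for Rbp2, and both genes are on the plus strand.
Col11a1: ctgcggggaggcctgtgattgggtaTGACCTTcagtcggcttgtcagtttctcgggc
Rbp2: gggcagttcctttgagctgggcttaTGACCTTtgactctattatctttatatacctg
The core starts 71 bases before the start of Col11a1 and 58 bases before that of Rbp2. A match of these letters is a description of the sequence only, and the lack of one says nothing of binding elsewhere.

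Nuclear genes of the respiratory chain and ATP synthase had mostly lower values, by small amounts, in 40 of 47 members. Of 47 tested, 15 fell and 1 rose by the adjusted p alone, against 6.31% and 10.5% of all genes, and none by 2-fold. The median difference was -0.136 log2 units, against 0.05 for all genes tested. Ndufa6, an accessory subunit of complex I, stood at 210 and 209 FPKM in Control and at 152 and 149 in the samples labelled Esrrb (-0.48 ± 0.04 SE, limma adjusted p = 0.00132). Ndufb10 of the same complex fell from 163 and 158 to 122 and 124 FPKM, Ndufs8 from 86.8 and 85.8 to 66.5 and 70.1 FPKM, and Cox7b of complex IV from 131 and 130 to 109 and 106 FPKM. The rise was that of Cox6a1 (0.17 log2 units). With 1 of the 4 samples left out, between 3 and 7 members fell, the fewest without Control replicate 1, and the call of Cox7b was then lost (adjusted p = 0.0507). Ndufs1, a core subunit of complex I, was listed at 0 in both samples labelled Esrrb against 50.8 and 54.0 FPKM in Control, but did not pass (limma adjusted p = 0.07021). One of the 2 Hh-CM samples and both samples labelled Esrrb+Hh-CM were also listed at 0. Of 30 genes of the citrate cycle and fatty acid oxidation, 5 fell and 2 rose (median -0.053), among them Suclg2, a subunit of succinyl-CoA ligase, from 96.6 and 98.1 to 81.5 and 79.1 FPKM. With any one of the 4 samples left out 2 of these fell, and 1 rose without Esrrb replicate 1 and none without the others.

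Genes of glycolysis and the hypoxia response also had lower values in vehicle. Of 26 tested, 8 fell and none rose (median -0.152), against 6.31% and 10.5% of all genes. Between the lines with Hh-CM, 3 fell and 5 rose (median 0.028), so the lower values did not recur there. Gpi1, the glycolytic isomerase, fell from 206 and 204 to 159 and 160 FPKM (-0.36 ± 0.03 SE, limma adjusted p = 0.002396), and Aldoa, an aldolase, from 750 and 759 to 623 and 634 FPKM. Gapdh, at 1842 and 1886 FPKM in Control, was at 1505 and 1538 in the samples labelled Esrrb (-0.29, limma adjusted p = 0.008833). The call of Gapdh was lost without Control replicate 2 or Esrrb replicate 1 (adjusted p up to 0.0593). The only member past 2-fold was Ankrd37, which was listed at 0 and is described below. After rescaling of the FPKM 13 members fell, and with 1 of the 4 samples left out between 3 and 5 did, the fewest without Control replicate 2.

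Genes of the Wnt pathway were described in 2 lists, to be read beside the 10.5% of all genes tested that rose and the 6.31% that fell. Of 8 secreted ligands and modulators tested, Sfrp2 and Sfrp1 rose and Wnt9a fell (median 0.23). Sfrp2 was named to mark this comparison, so its rise lends the list no support. Sfrp1, a relative of Sfrp2 that also binds Wnt ligands, lies on chromosome 8 from 24521974 to 24560104 and rose from 73.0 and 77.4 to 193 and 202 FPKM (log2 difference 1.39 ± 0.04 SE, limma adjusted p = 6.235e-05). Wnt9a fell by 0.59 log2 units, and its call was lost without either Control sample or Esrrb replicate 2 (adjusted p up to 0.133). Of 17 receptors and target genes, 6 rose and 2 fell (median 0.13), with 3 rising without Control replicate 1 or Esrrb replicate 1 and 1 falling without Control replicate 1 or Esrrb replicate 2. The receptor kinase gene Ror2, which binds Wnt5a, rose from 2.42 and 2.91 to 5.95 and 6.03 FPKM (1.15, limma adjusted p = 0.002445). The Frizzled receptor gene Fzd1 rose from 65.8 and 64.4 to 108 and 109 FPKM. The matricellular Wisp1 rose from 24.7 and 24.4 to 41.3 and 38.6 FPKM, whereas its relative Wisp2 fell from 82.1 and 81.1 to 59.9 and 61.0 FPKM. In the Hedgehog pathway, 4 of 14 members tested rose and none fell (median 0.151, against 0.05 for all genes tested). They were the transcription factor genes Gli2 (4.19 and 4.55 to 6.27 and 6.11 FPKM) and Gli3, the transducer Smo and its downstream inhibitor Sufu, with log2 differences of 0.49, 0.43, 0.22 and 0.40. Ptch1, the receptor gene that pathway activity induces, was at 2.44 and 2.98 FPKM in Control and at 3.08 and 2.76 in the samples labelled Esrrb (limma adjusted p = 0.5441), and Gli1 was below the FPKM limit. With 1 of the 4 samples left out, 1 member rose without Control replicate 2 and none without the others.

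Among the genes past both thresholds and higher in the samples labelled Esrrb, Igf2 of the insulin-like growth factor axis had the highest FPKM. Igf2, a fetal growth factor, lies on chromosome 7 from 149836673 to 149852721 and rose from 374.5 and 383.8 to 1153 and 1148 FPKM, a ratio of 3.04 (1.60 ± 0.04 SE, limma adjusted p = 4.011e-05). Igf1 rose from 3.36 and 3.15 to 6.60 and 6.62 FPKM, a log2 difference at the threshold of 1 (limma adjusted p = 0.001421), and was under this limit after rescaling (0.96). Pappa, a protease that releases growth factor from its binding proteins, fell from 9.77 and 11.9 to 5.59 and 4.96 FPKM (-1.02, limma adjusted p = 0.003617). Igfbp7 fell by 0.38 log2 units, a call lost without any one of the 4 samples (adjusted p up to 0.144). In all, 2 of 12 members rose and 2 fell (median -0.061). In TGF-β and BMP signalling, 4 of 24 rose and 5 fell (median 0.14), against 10.5% and 6.31% of all genes tested. Without 1 of the 4 samples 3 fell in each case, and 2 rose except without Esrrb replicate 2, where 3 did. The receptor gene Tgfbr2 rose from 36.9 and 37.3 to 65.9 and 65.3 FPKM (0.82, limma adjusted p = 0.0001756). Inhba, the activin A subunit, fell from 2.66 and 2.69 to 1.10 and 1.33 FPKM (-1.08, limma adjusted p = 0.002129). Ltbp2, a fibrillin-binding protein of the matrix, fell from 33.9 and 33.0 to 18.3 and 18.2 FPKM. Kitl, the ligand of the receptor Kit, rose from 33.6 and 33.8 to 75.1 and 76.8 FPKM (1.17, limma adjusted p = 6.074e-05). It led the list of chemokines, cytokines and acute-phase proteins, in which 5 of 25 rose and 4 fell (median 0.053). The number that fell was 1 without either Control sample, 2 without Esrrb replicate 1 and 0 without Esrrb replicate 2, and 3 rose without Esrrb replicate 2. Saa3, an acute-phase protein, rose from 1351 and 1265 to 2492 and 2476 FPKM (0.93, limma adjusted p = 0.0002481).

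Of the collagens and the enzymes that process them, 13 of 31 rose and 4 fell (median 0.164), against 10.5% and 6.31% of all genes tested. Col12a1, a collagen on the surface of fibrils, rose from 3.22 and 3.03 to 17.2 and 15.3 FPKM (2.34 ± 0.08 SE, limma adjusted p = 9.357e-05). The fibril collagen Col3a1 rose from 664 and 672 to 1021 and 989 FPKM, Col5a2 from 106 and 109 to 171 and 164 FPKM, and Adamts2, which removes the procollagen N-terminal part, from 32.5 and 32.3 to 56.5 and 55.1 FPKM. In the other direction, Col11a1, a minor fibril collagen typical of cartilage, fell from 6.64 and 7.49 to 2.90 and 2.88 FPKM (-1.26, limma adjusted p = 0.0007532), and Col8a1 from 13 and 13.5 to 8.52 and 8 FPKM. With 1 of the 4 samples left out, between 5 and 7 members rose, the fewest without Control replicate 1 or Esrrb replicate 1.

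Proteoglycans and matricellular proteins changed in both directions. Of 35 tested, 10 rose and 12 fell (median 0.009), against 10.5% and 6.31% of all genes, and 8 rose and 10 to 12 fell when any one of the 4 samples was left out. Lum, a small leucine-rich proteoglycan that binds collagen fibrils, rose from 361 and 336 to 989 and 1059 FPKM (1.55 ± 0.10 SE, limma adjusted p = 0.0006295). Dpt, a matrix protein that binds decorin, rose from 71.3 and 74.2 to 151 and 150 FPKM (1.05, limma adjusted p = 0.000709). Fmod, a close relative of Lum, moved the opposite way, from 11.4 and 12 to 3.09 and 3.14 FPKM (-1.88 ± 0.08 SE, limma adjusted p = 0.000186). Aspn, another small proteoglycan, fell from 252 and 258 to 130 and 125 FPKM, Mfap4, a microfibril protein, from 27.9 and 29.0 to 11.1 and 10.7 FPKM, Nov, a matricellular regulator, from 1.96 and 2.12 to 0.746 and 0.594 FPKM, and Mgp, an inhibitor of calcification, from 49.0 and 55.9 to 29.0 and 27.8 FPKM. Nov entered the test only through Control. Of the matrix proteases and their inhibitors, 7 of 20 rose and 2 fell (median 0.099), led by Adamts9, which rose from 5.39 and 5.01 to 10.5 and 9.58 FPKM (0.94, limma adjusted p = 0.001479). Without either Control sample 3 of them rose, without either sample labelled Esrrb 4 rose, and in each case 1 fell. Among the fibroblast markers, Dcn, Col3a1 and Lum rose while Vim (-0.32) and Fn1 (-0.76), which encodes fibronectin, fell.

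Of 25 contractile genes and targets of SRF and YAP, 5 fell and 1 rose (median -0.04), and 3 fell and 2 rose without Esrrb replicate 2. With all samples, 6.31% of all genes tested fell and 10.5% rose. Acta2, the smooth muscle actin, fell from 377 and 372 to 210 and 212 FPKM (-0.82 ± 0.04 SE, limma adjusted p = 0.0002481), Tagln from 83.2 and 85.2 to 42.6 and 42.8 FPKM, and the light chain Myl9 from 35.3 and 35.1 to 19.3 and 21.2 FPKM. Ankrd1, a mechanosensitive YAP target, fell by 0.68 log2 units, a call that was lost without Control replicate 1 or Esrrb replicate 2 (adjusted p up to 0.0591). The other changed member, Amotl2, rose by 0.20 and its call was lost under rescaling. The structural members Vcl, Flna and Actn1 differed by -0.03, -0.07 and -0.04 log2 units and did not pass.

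All 37 mitosis and cytokinesis genes tested had a higher mean in the samples labelled Esrrb, and 13 of them rose (median 0.308). Among all genes tested, 10.5% rose and the median was also above 0, at 0.05. Top2a, the topoisomerase of proliferating cells, rose from 14.0 and 14.2 to 20.8 and 20.7 FPKM (0.56 ± 0.04 SE, limma adjusted p = 0.001393). Birc5, a subunit of the chromosomal passenger complex, rose from 12.7 and 13 to 19.1 and 18.9 FPKM, and the cyclin gene Ccna2 from 13.1 and 13.2 to 17.1 and 16.9 FPKM. Mki67 was at 2.66 and 2.11 FPKM in Control and at 3.62 and 2.95 in the samples labelled Esrrb and did not pass (limma adjusted p = 0.08788). Of 36 replication genes, 5 rose and none fell (median 0.152), against 10.5% and 6.31% of all genes tested. The helicase gene Mcm4 was at 19.3 and 19.1 FPKM in Control and at 24.1 and 23.9 in the samples labelled Esrrb. With 1 sample left out, 1 replication gene rose without Control replicate 1 and 2 without any of the others. The counts of rising mitosis genes were smaller with 1 of the 4 samples left out, from 3 without Control replicate 1 or Esrrb replicate 1 to 6 without Esrrb replicate 2, and 36 of 37 kept a higher value after rescaling. None of these genes reached 2-fold. Among the G1 regulators, Ccnd1 fell by 0.31 log2 units, from 25 and 24.4 to 20.0 and 19.8 FPKM, with the call lost without Control replicate 1 or Esrrb replicate 2 (adjusted p up to 0.0568).

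**Figure D3:**
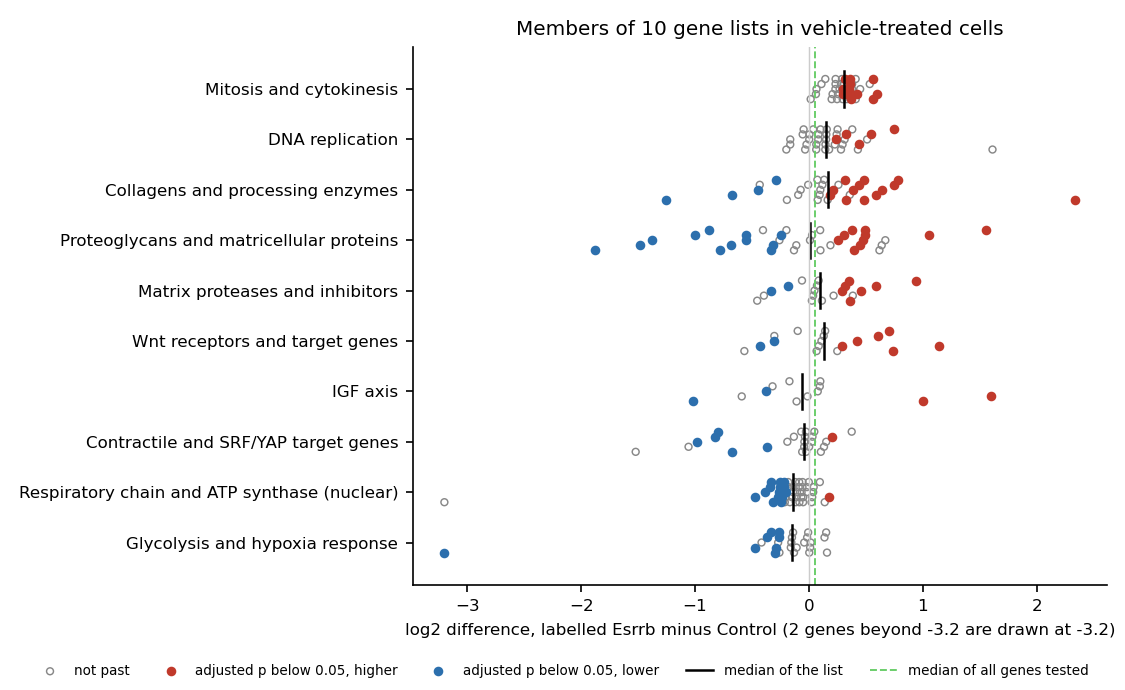
Log2 difference, samples labelled Esrrb minus Control, of every tested member of 10 gene lists, with filled points for an adjusted p below 0.05, a black bar for the median of the list and a dashed line for the median of all genes tested (0.05). Mitosis genes lie to the right (median 0.308), respiratory chain genes to the left (median -0.136), and proteoglycans and matricellular proteins spread to both sides (10 rose, 12 fell).

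In the remaining lists the numbers of changed members were small. Of all genes tested, 10.5% rose and 6.31% fell by the same rule. Of 12 adipogenic and lipid-uptake genes, 3 rose and 3 fell. The metalloreductase gene Steap4 rose from 14.0 and 14.9 to 39.6 and 38.7 FPKM (1.43, limma adjusted p = 6.235e-05), and Fabp4, a fatty acid-binding protein of adipocytes, fell from 8.40 and 9.34 to 3.85 and 3.81 FPKM (-1.19, limma adjusted p = 0.01803). The latter call was lost without any one of the 4 samples (adjusted p up to 0.0841). Of 16 PAR bZIP and clock genes, 2 rose and 3 fell, with Hlf, a transcription factor of the circadian output, from 2.28 and 2.37 to 5.96 and 6.47 FPKM (1.38, limma adjusted p = 0.0003429). Of 13 retinoid genes, 3 rose and 2 fell, and Rarres2, which encodes the chemoattractant chemerin, rose from 34.4 and 33.7 to 169 and 145 FPKM (2.20, limma adjusted p = 9.008e-05). With any one of the 4 samples left out, 1 retinoid gene rose and none fell, and 1 clock gene fell, while 2 clock genes rose without Control replicate 1 and 1 without any of the others. Of 17 interferon-stimulated genes tested, 4 rose and none fell (median 0.253), and 2 rose after rescaling, as without Control replicate 2 or either sample labelled Esrrb. Of the 8 Hox genes tested, the neighbours Hoxd8 and Hoxd9 rose, the latter from 6.58 and 7.85 to 13 and 12.7 FPKM. Of 5 pluripotency genes tested, Tbx3 and Klf5 rose, by 0.91 and 0.49 log2 units, with calls that were lost without Control replicate 2 or Esrrb replicate 1, and for Klf5 also without Esrrb replicate 2 (adjusted p up to 0.0535 and 0.108). Of 30 genes of cholesterol and fatty acid synthesis, 5 rose and 2 fell, one of them Fdft1, which was listed at 0. With 1 of the 4 samples left out, 3 rose without Esrrb replicate 2 and 2 without any of the others, and 2 fell without Control replicate 2 and 1 without any of the others.

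In the lists not yet named, 1 to 5 members rose and 0 to 3 fell, to be read beside the 10.5% and 6.31% of all genes tested. The numbers were 5 and 3 of 23 p53 and DNA damage genes, 3 and 2 of 19 G1 regulators, 3 and 1 of 14 glucocorticoid and hydroxysteroid genes, and 1 and 0 of 6 Notch genes. They were 4 and 2 of 25 genes of growth factor receptor signalling with feedback, 5 and 1 of 29 mesenchymal transcription factors including Wt1, and 2 and 0 of 3 mesothelial and WT1-associated genes, again including Wt1. They were 3 and 0 of 14 oxidative stress genes and 1 and 3 of 25 genes of the unfolded protein and integrated stress response. Most of these counts were smaller with 1 of the 4 vehicle samples left out. The rises were then 0 to 2 for the p53 list (0 without Control replicate 1), 0 or 1 for G1 regulators (0 without Control replicate 1 or Esrrb replicate 1) and 0 to 3 for glucocorticoid genes (0 without Esrrb replicate 1). They were 1 to 3 for growth factor signalling (1 without Control replicate 1), 1 or 2 for mesenchymal factors (2 without Control replicate 1) and 1 or 2 for oxidative stress genes (2 without Esrrb replicate 1). The Notch gene rose only without Control replicate 1, and no stress response gene rose. The falls were 0 to 2 in each of these lists. The count of mesothelial and WT1-associated genes that rose stayed at 2, which lends no support. Wt1 was named to mark this comparison and entered the test only through the samples labelled Esrrb. Of the 15 members of that list, 11 lay below the FPKM limit. In the stress response list Ddit3, a stress-induced transcription factor, fell from 194 and 195 to 143 and 138 FPKM (-0.47, limma adjusted p = 0.000709).

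Genes at exactly 0 on one side were set apart, because a 0 in these files may be a failed estimate, which was not tested. The status of failure was given to only 1 or 2 loci in each vehicle sample. Of the 139 genes past both thresholds, 6 were listed at 0 in both Control samples and 6 in both samples labelled Esrrb, and Ces1d was listed at 0 in Esrrb replicate 1 alone. Il4i1 was at 29.6 and 27.3 FPKM, Klhdc9 at 4.59 and 6.13, Agbl5 at 3.66 and 3.67, Rom1 at 2.62 and 3.19 and 1700016M24Rik at 2.87 and 2.82 in the samples labelled Esrrb, and all were listed at 0 in Control. In the other direction, Fdft1, the squalene synthase gene, was at 35.6 and 35.9 FPKM in Control, Ormdl2 at 17 and 13.8, Ankrd37 at 8.21 and 7.48, 2810002D19Rik at 4.20 and 3.16 and A830082K12Rik at 3.36 and 3.4, and all were listed at 0 in the samples labelled Esrrb. This set was completed by 1190007F08Rik and Fam113b, which the naming rule did not cover. A log2 difference against a group at 0 depends on the pseudocount and is no measure of size. Of these 12 genes, 10 (83.3%) overlap the annotated span of a protein-coding gene, on either strand, against 22.6% of all genes tested and 12.6% of the other 127 genes. For Fdft1 this neighbour is Ctsb, for Il4i1 Atf5 and Nup62, for Klhdc9 Pfdn2 and for Ormdl2 Dnajc14.

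With Hh-CM in place of vehicle, 11 of these 12 genes had a different contrast between the lines. Fdft1 was at 31.0 and 31.8 FPKM in the Hh-CM samples and at 34.7 and 32.7 in the samples labelled Esrrb+Hh-CM, and Il4i1 at 29.0 and 30.5 against 40.6 and 42.4 FPKM. Both were thus listed at 0 in 2 of the 8 samples only. Ankrd37 was listed at 0 in all samples except the 2 Control samples. The exception was 1700016M24Rik, listed at 0 and 0.0121 FPKM in the Hh-CM samples and at 3.11 and 4.24 FPKM in those labelled Esrrb+Hh-CM. Its difference between the lines recurred with Hh-CM (limma adjusted p = 0.0003293). These samples entered its choice only through the shared estimate of the spread. Of the 6 genes at 0 in both Control samples, 3 kept the direction with Hh-CM at an adjusted p below 0.05, 1 of them by 2-fold. None of the 6 at 0 in both samples labelled Esrrb did. Another 8 genes that were tested and listed at 0 in both samples of a group did not pass, Ndufs1 among them.

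The other 127 genes were compared in the Hh-CM pair of groups, which holds separate samples of the same lines. Both pairs share the spread estimated over all 8 samples, so their p-values are not independent. By the adjusted p alone, 1915 genes passed in the Hh-CM pair, and 806 when only this pair was fitted. Of the 127 genes, 121 had the same sign in both pairs, 102 also had an adjusted p below 0.05 (58 of 71 higher, 44 of 56 lower), and 80 also reached 2-fold. In the Hh-CM pair as a whole, 12.6% of all genes tested were higher and 6.54% lower by the adjusted p alone, and 1.7% passed both thresholds (0.967% higher, 0.738% lower). The difference between the 2 contrasts was tested as an interaction, which 134 genes (1.34%) passed with an adjusted p below 0.05, and 10 of the 127 did. Fam5c was at 5.93 and 5.72 FPKM in the Hh-CM samples against 82.6 and 77.7 FPKM in those labelled Esrrb+Hh-CM, Igf2 at 345 and 362 against 1010 and 956 FPKM, and Ppargc1a at 2.67 and 2.84 against 0.377 and 0.457 FPKM. Sfrp2 was at 3.47 and 4.33 against 33.5 and 31.8 FPKM, with a log2 difference of 3.04 between them. For none of these 4 genes did the interaction pass (limma adjusted p from 0.246 to 0.585).

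Some lists differed more, to be read beside the 12.6% of all genes tested that rose and the 6.54% that fell with Hh-CM. With Hh-CM all 37 mitosis genes rose (median 0.914) and 30 of 36 replication genes did (median 0.641), whereas 3 respiratory chain genes fell and 6 rose (median -0.02). Of the matrix proteases and their inhibitors, 2 rose and 4 fell (median -0.011). The counts of collagens (10 rose, 5 fell) and of proteoglycans and matricellular proteins (9 rose, 15 fell) stayed closer to those in vehicle. The interaction passed for Top2a (0.61 log2 units, limma adjusted p = 0.01499), Ccna2 and Cdk1, and for Ndufb10 (0.32, limma adjusted p = 0.04075). Among the matrix genes it passed for Fmod, which was at 16.3 and 18.3 FPKM in the Hh-CM samples and at 1.79 and 1.80 in those labelled Esrrb+Hh-CM (interaction -1.32, limma adjusted p = 0.008127). It also passed for Aspn and Mfap4, both with a larger decrease under Hh-CM.

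**Figure D4:**
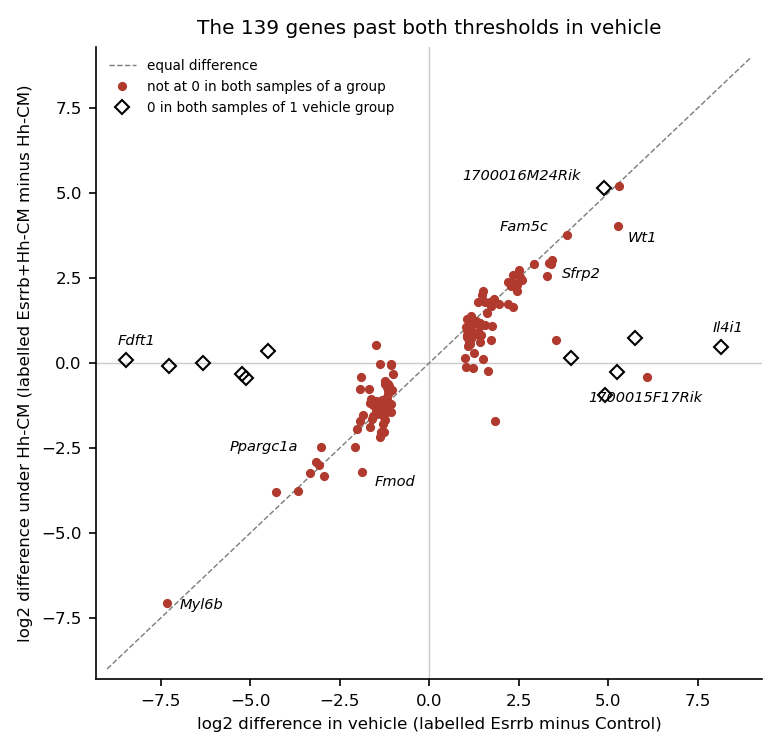
Log2 difference between the lines under Hh-CM against that in vehicle for the 139 genes past both thresholds in vehicle, with a dashed line for equal differences. Fam5c, Sfrp2 and Ppargc1a lie near the line, while 11 of the 12 genes listed at 0 in both samples of a vehicle group (open diamonds) lie near a difference of 0 on the vertical axis or away from the line.

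The genes past both thresholds lay on 18 of the 19 autosomes, the exception being chromosome 18, and on chromosome X. Chromosomes 1 and X had the highest shares of their tested genes past both thresholds, 2.43% each, against 1.39% overall. On chromosome 1, C130026I21Rik (84989265 to 85267141) and Gm7609 (85196188 to 85210361) overlap, and Sp110 (87473474 to 87495392), which rose from 2.16 and 1.90 to 12 and 11.8 FPKM, lies further along. On chromosome X, Gm16430 and Gm16405 overlap and had identical values, so that they count as 1 measurement. On chromosome 7, the ion transport regulators Fxyd5 and Fxyd1 lie 9200 bases apart and both fell, and on chromosome 8 Dlc1 and AI429214 lie 41139 bases apart and both fell. Amigo2, which rose, overlaps Fam113b, which was listed at 0 in the samples labelled Esrrb.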

How the data were processed

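RNA-seq libraries (TruSeq Stranded mRNA, Illumina sequencing) of 8 NIH3T3 samples were aligned by the authors to mm9 with TopHat2 and assembled per sample with Cufflinks, guided by a reference annotation. Tool versions are not given in the sources used here. The deposited values are FPKM per assembled locus, with no counts, so a count test could not be run. Because each library was assembled on its own, the limits of a locus can differ between samples, and a locus that spans neighbours carries reads of both. Loci were joined to annotated genes by their mm9 position.

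Genes that reached an FPKM of 1 in 2 or more vehicle samples were tested. The test used limma (version 3.58.1, run under R 4.3.3) after transformation to log2(FPKM + 0.1), with all 8 samples, 4 group means and a variance trend, and Benjamini-Hochberg adjustment. A gene passed both thresholds at an adjusted p below 0.05 and an absolute log2 difference of at least 1, and a list member rose or fell at an adjusted p below 0.05 alone. For groups of 2, the smallest p of an exact permutation test is 0.333, so only the fit across all genes was used. Depth was estimated from the step of low FPKM values.

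The genes named are the 12 largest increases and 12 largest decreases past both thresholds with FPKM above 0 and the same sign in all 4 pairs, the 5 genes per direction listed at 0 in both samples of a group with the highest mean in the other, Sfrp2, Wt1 and Esrrb, and, per list, the members past both thresholds and up to 4 with the smallest adjusted p (otherwise up to 3 with the highest FPKM). The members and lists were chosen with earlier results of these data known. Alternatives covered the pseudocount, the filter, rescaling, the samples fitted, a replicate block and leaving out each sample. Promoters were taken from RefSeq. Some genes that the rule names are not reported here.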

Additional observations from a re-analysis of the deposited data

Results flagged for a closer look

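The difference between the lines was itself different with Hh-CM than with vehicle for 26 of the named genes, as tested by the interaction term in limma (adjusted p below 0.05 over all genes tested). Among all genes tested, 134 (1.34%) passed. The named genes were mostly chosen by their values in vehicle, so the 26 give no rate of such differences. The values below are the log2 difference with Hh-CM minus that with vehicle. For the genes listed at 0 in both samples of a vehicle group they depend on the pseudocount and are no measure of size. They were -7.67 for Il4i1, -5.03 for Klhdc9, -5.50 for Agbl5, -5.85 for Rom1, 8.59 for Fdft1, 7.17 for Ormdl2, 6.31 for Ankrd37, 4.89 for 2810002D19Rik and 4.68 for A830082K12Rik. For 1700015F17Rik, whose locus reached over Cldn12, the value was -6.50.

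Among secreted and matrix genes the values were -0.57 for Sfrp1, -0.45 for Wisp2, 1.03 for Inhba, -0.84 for Igf1, -1.32 for Fmod, -0.79 for Mfap4, -1.15 for Aspn, -0.44 for Kitl and -0.86 for Il33. For the cell cycle genes Top2a, Ccna2 and Cdk1 they were 0.61, 0.59 and 0.55. For Ndufb10, Gapdh, Ddit3 and Mthfd2 they were 0.32, 0.50, 0.50 and 0.54. Groups of 2 samples are too small to look for a sample far from the others.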

How the results depend on the processing

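The 139 genes past both thresholds in vehicle became 88 with a pseudocount of 1, 76 with an FPKM of at least 1 in all 4 samples, and 86 of 4768 tested when only genes with identical loci, values above 0 and no overlapping gene were kept, a setting chosen after seeing the data. They ranged from 143 to 157 with 1 sample left out. The 1686 genes by adjusted p alone became 994 when only the compared groups were fitted, and 674 to 1716 with 1 sample left out, namely 674 and 751 without Control replicate 1 and 2, and 734 and 736 without Esrrb replicate 1 and 2. The 171 genes of the Hh-CM pair became 110 with a pseudocount of 1, 109 with identical loci and 101 under the setting chosen later, with 169 to 208 when 1 sample was left out. The 134 interactions became 75 without a variance trend and 59 to 169 with 1 sample left out, with 78, 75, 59 and 76 without Control replicate 1, Esrrb replicate 1, Esrrb replicate 2 and Hh-CM replicate 2. The cause of these shifts was not tested. With the replicate number as a block the counts were 135, 1204, 165 and 53 interactions, but correlations of same-numbered samples were between -0.0543 and 0.0525, so the numbers do not pair the samples. Of the values of the named genes under the alternatives, 3225 kept direction and side of the threshold, 319 no longer passed, 7 newly passed (all of Cd14) and none reversed.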
